A study of Mus musculus with 12 samples.

Results

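Genes of the mitochondrial ribosome were followed across germinal center (GC) and naive B cells of mouse spleen. Members are all genes in the table of expression values whose symbol begins with Mrpl or Mrps and a digit, pseudogenes left out, and this name rule used no measured value. It gave 77 genes of the 24063 gene symbols in the table. All 77 passed the filter on low values that left 13704 genes for testing. Of the 77, 50 code for proteins of the large subunit and 26 for proteins of the small subunit. Mrps36 carries the family name but is now known as a component of the ketoglutarate dehydrogenase complex. RNA was sequenced from 12 libraries of C57BL/6 mice, 3 in each of 4 groups. GC B cells (B220+PNA+GL7+) came from B-KO mice and from WT mice given sheep red blood cells (SRBC) 14 days earlier. B220+ cells of unimmunized B-KO and WT mice served as naive B cells, and this gate selects B cells without a further marker of the naive state. B-KO mice carry floxed miR-146a alleles that CD21-cre deletes in mature B cells. The study describes this deletion as specific to mature B cells, and the miR-146b gene was not targeted. Mice were 8 to 10 weeks old unless the study states another age.

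Mitochondria carry their own small genome and translate its messages on ribosomes that differ from those of the cytosol. These mitoribosomes make core subunits of the respiratory chain and of ATP synthase. Their RNAs come from mitochondrial DNA, while all their proteins are encoded in the nucleus, made in the cytosol and imported. Some of the proteins have counterparts in bacterial ribosomes and others were added in the mitochondrial lineage. Naive B cells are resting, and GC B cells divide rapidly and mutate their antibody genes.

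Each library held between 22945634 and 39118224 reads on transcripts. The deposited unit is RPKM (reads per kilobase of transcript, adjusted for library size), here scaled to 10000000 reads per library, so that values are 10 times the usual size. Reads on both strands were counted. All 7 GC B cell markers were higher and all 5 naive B cell markers lower in GC B cells of each genotype, and the 5 general B cell markers were read in every library. The GC marker sum was 6326 to 9027 RPKM in GC and 283 to 1364 RPKM in naive libraries. Naive markers summed to 3001 RPKM in B-KO GC replicate 2 and 2269 RPKM in WT GC replicate 3, against 1162 to 1330 RPKM in the other 4 GC libraries. In B-KO naive replicates 1 and 2 the GC markers summed to 1364 and 707 RPKM, against 283 to 495 RPKM in the other 4 naive libraries. Y-linked genes were expressed in B-KO GC replicates 1 and 2 and WT GC replicate 3, and were near 0 in the other 9 libraries. The miR-146a locus (Mir146) had 0, 0 and 1 reads in B-KO GC and 0, 4 and 0 in WT GC libraries, and 0, 0 and 0 reads in B-KO naive and 2, 0 and 0 in WT naive libraries, too few to check the deletion. The methods call the libraries of a group biological replicates, without the number of mice in each. Markers of plasma cells (3 of 4 listed genes tested) summed to 664 RPKM in B-KO GC replicate 2 and 620.1 RPKM in WT GC replicate 3 and to 164 to 208 RPKM in the other GC libraries, against 374 to 489.9 RPKM in naive libraries. Of the 5 myeloid markers 2 were higher in GC B cells of each genotype (147 to 361 RPKM in sum, against 82.1 to 137 RPKM in naive libraries). T cell markers summed to at most 52.2 RPKM. Stromal markers summed to 128 to 233 RPKM in GC and 476 to 680.4 RPKM in naive libraries, and the 1 tested of 5 was lower in GC B cells of each genotype. Markers of red cells and platelets summed to 48.4 to 238 RPKM in GC libraries, 372 to 626 RPKM in B-KO naive and 237 to 247 RPKM in WT naive libraries, with 2 of 5 tested lower in GC B cells of each genotype. Of the 5 general B cell markers 3 were lower in GC B cells of B-KO and 4 in those of WT mice. The part of other cells in the results was not tested.

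Most mitochondrial ribosomal protein genes were higher in GC than in naive B cells, in both genotypes. In B-KO mice 55 of the 77 rose and 1 fell, and in WT mice 53 rose and 3 fell (limma on log2(RPKM + 1), Benjamini-Hochberg adjusted p under 0.05 over 13704 genes). Over all genes tested, 30.0% rose and 27.5% fell in B-KO mice and 31.7% rose and 30.2% fell in WT mice. The median log2 difference of the 77 genes was 0.46 in B-KO and 0.43 in WT mice, against 0.015 and 0.0054 over all genes tested. The difference was positive for 71 members in B-KO and 68 in WT mice. In 47 members every one of the 6 GC libraries lay above every one of the 6 naive libraries, which 26.8% of all genes tested do, and in 1 member (Mrpl24) all 6 lay below, which 24.8% of all genes do. Together the 77 genes took 0.179% to 0.203% of reads in B-KO GC and 0.165% to 0.193% in WT GC libraries, against 0.137% to 0.140% in B-KO naive and 0.123% to 0.143% in WT naive libraries. In bulk RNA a change in the cells present and a change in RNA per cell cannot be told apart.

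**Figure D1:**
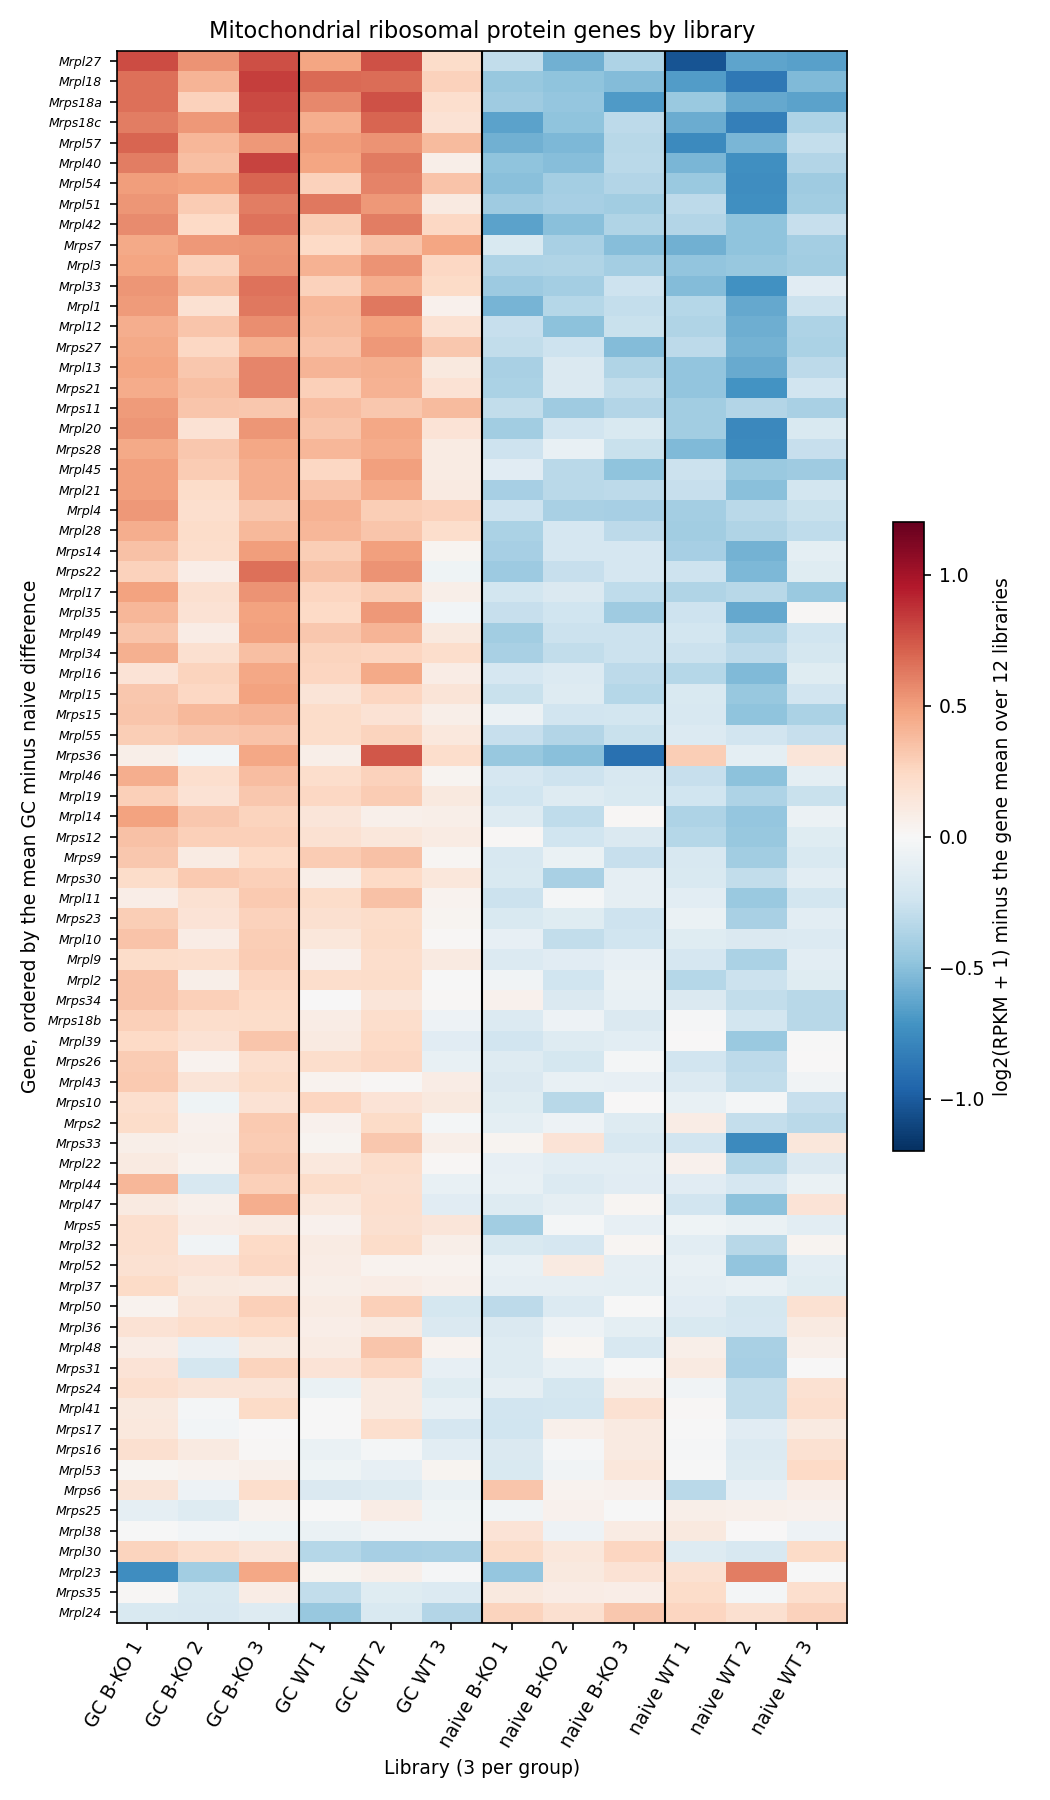
Heatmap of the 77 genes (rows, ordered by the mean difference of GC minus naive libraries) in 12 libraries (columns, 3 per group), with colour giving log2(RPKM + 1) minus the mean of the gene over all libraries. The upper rows are red in GC and blue in naive libraries, the rows near the bottom show little contrast, and Mrpl24 in the last row runs the other way. B-KO GC replicate 2 and WT GC replicate 3 are paler than the other GC libraries.

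The GC libraries with the higher naive marker sums also had the lower levels of these genes. The median over the members of log2(RPKM + 1) minus the gene mean was 0.32, 0.18 and 0.33 in B-KO GC and 0.21, 0.26 and 0.07 in WT GC libraries, against -0.22, -0.20 and -0.20 in B-KO naive and -0.23, -0.39 and -0.15 in WT naive libraries. The lowest GC values, 0.18 and 0.07, are those of B-KO GC replicate 2 and WT GC replicate 3. Their proliferation genes were also lower, at 4602 and 4169 RPKM in sum, with 5881 to 7038 RPKM in the other 4 GC libraries, against 574 to 1316 RPKM in naive libraries. The part of these cells in the levels was not tested. A further fit left out the 4 libraries whose markers stand closest to those of the other cell type (these 2 and B-KO naive replicates 1 and 2). The B-KO naive group then held replicate 3 alone, so calls from this fit are not given. The median differences were 0.54 in B-KO and 0.47 in WT mice, with 67 and 68 members positive.

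Most genes of each subunit rose. Of the 50 large subunit genes, 37 rose in B-KO and 37 in WT mice, with medians of 0.54 and 0.47. Of the 26 small subunit genes, 17 rose in B-KO and 16 in WT mice, with medians of 0.37 and 0.34. Among the 46 proteins with a bacterial counterpart, 35 rose in B-KO and 34 in WT mice (medians 0.54 and 0.49). Of the 28 specific to mitochondria, 17 rose in each genotype (medians 0.36 and 0.31). Over all 77 members 71.4% rose in B-KO and 68.8% in WT mice, and over all genes tested 30.0% and 31.7%. These shares are descriptions, and the difference between the classes was not tested.

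In WT mice the largest rises, Mrpl27 and Mrpl18, were in the central protuberance, the crown of the large subunit where it meets the small one. Mrpl27 (chr11:94653791-94660087, plus strand, mm10), the counterpart of bacterial L27, which sits close to the peptidyl transferase center, had 166, 139.8 and 165 RPKM in B-KO GC libraries and 133, 164 and 111 in WT GC libraries, against 78.1, 64.0 and 74.0 in B-KO naive and 46.2, 61.5 and 60.5 in WT naive libraries. All 6 GC libraries were well above all 6 naive ones. The log2 difference was 1.11 ± 0.15 in B-KO (adjusted p = 0.000134) and 1.26 ± 0.15 in WT (adjusted p = 4.06e-05). Mrpl18 (chr17:12911355-12916091, minus strand), the counterpart of bacterial L18, which binds ribosomal RNA of the protuberance, had 589, 494 and 663 RPKM in B-KO GC libraries and 596, 595 and 452 in WT GC libraries, against 271, 266 and 259 in B-KO naive and 233, 205 and 258 in WT naive libraries. It rose by 1.12 ± 0.13 in B-KO (adjusted p = 5.27e-05) and 1.23 ± 0.13 in WT (adjusted p = 1.73e-05), and again no library crossed between the cell types. Mrpl40, a mitochondrial addition, averaged 331 ± 50.6 and 288 ± 55.0 RPKM in B-KO and WT GC libraries, against 159.8 ± 11.3 and 149 ± 20.1 in B-KO and WT naive libraries (SD, n = 3 each) and rose by 1.04 ± 0.15 and 0.93 ± 0.15 (adjusted p = 0.000221 and 0.000345). Its neighbour Mrpl46 rose by 0.55 in B-KO and 0.47 in WT mice. Mrpl38 of the same region had 163, 160.2 and 158 RPKM in B-KO GC libraries and 155, 159 and 159 in WT GC libraries, against 184, 158 and 175 in B-KO naive and 178, 164 and 157 in WT naive libraries, and its ranges overlap. Of the 7 central protuberance genes 5 rose in each genotype (71.4%), and Mrpl38 and Mrpl48 passed in neither. That share is near those of all 77 members, 71.4% in B-KO and 68.8% in WT mice. Over all genes tested 30.0% and 31.7% rose.

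**Figure D2:**
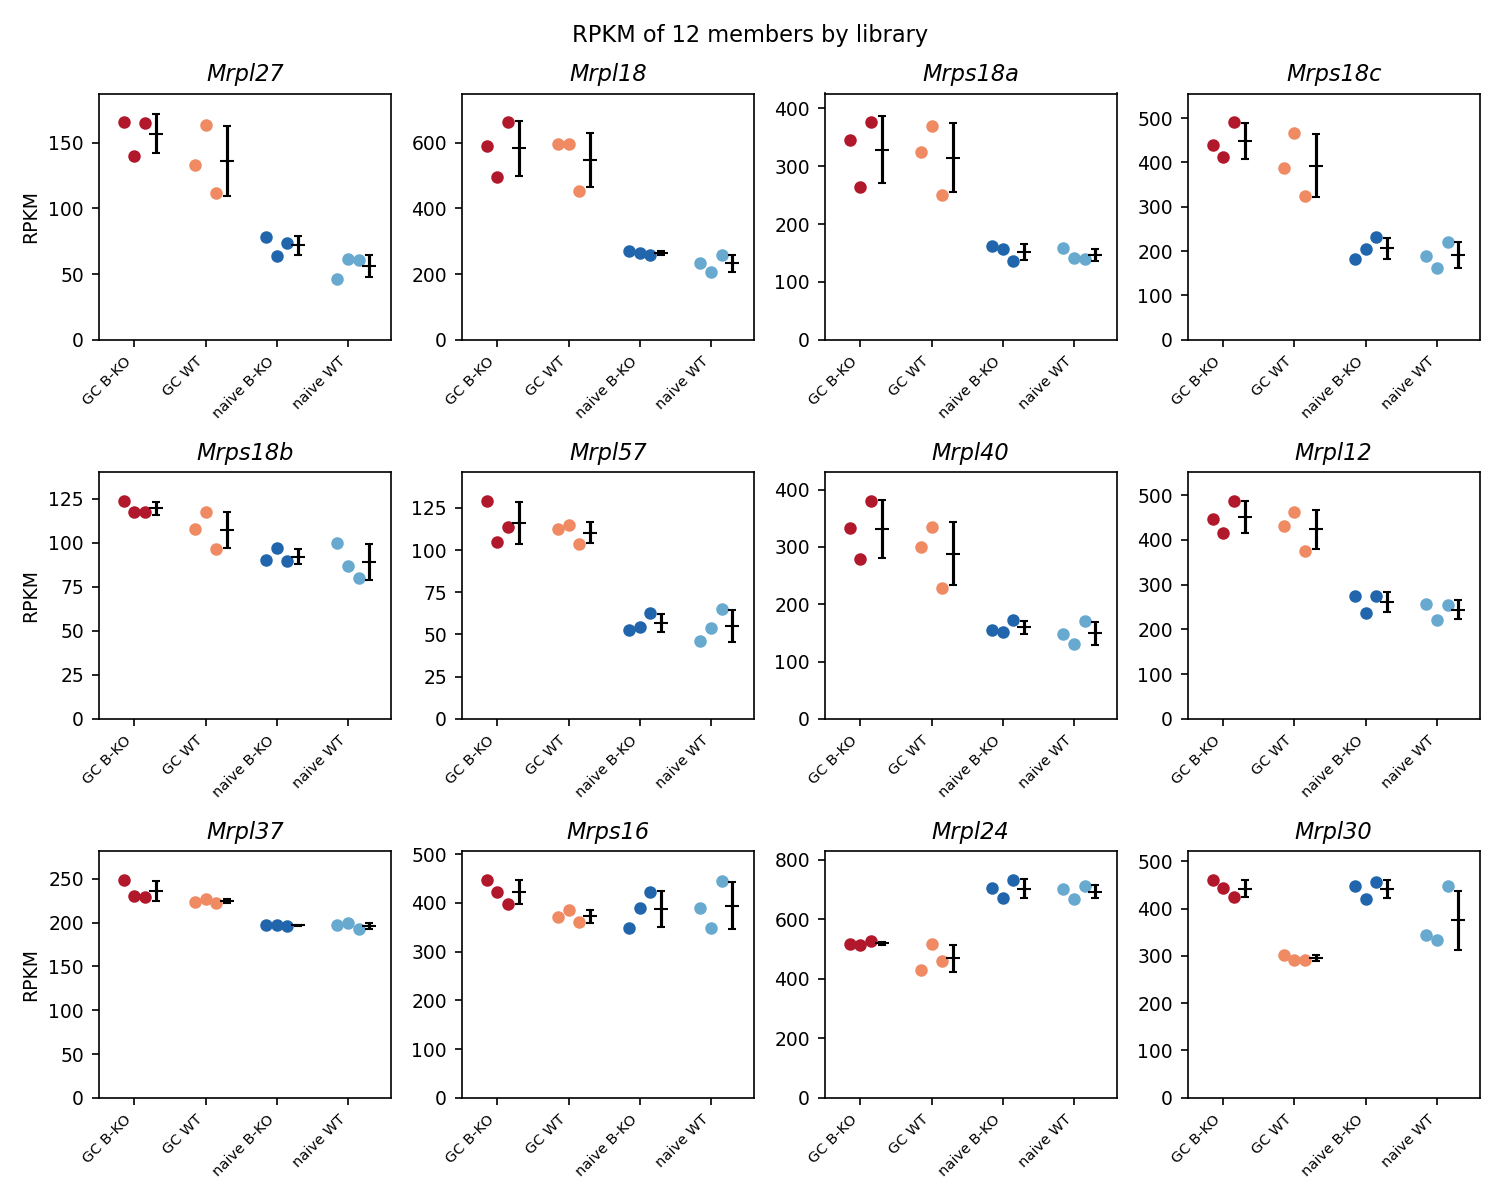
RPKM of 12 of the genes in every library, with the mean and SD of each group in black (n = 3, vertical axes from 0). Mrpl27, Mrpl18, Mrps18a, Mrps18c, Mrpl57, Mrpl40 and Mrpl12 separate GC from naive libraries, Mrps18b and Mrpl37 have small differences, Mrps16 overlaps, and Mrpl24 lies lower in GC libraries. Mrpl30 is lower in WT GC libraries than in the B-KO GC libraries.

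The S18 proteins are a family of 3 relatives of bacterial S18, each with a place of its own in the mitoribosome. Mrps18c takes the bacterial position in the small subunit, Mrps18b lies elsewhere in the small subunit, and Mrps18a belongs to the large subunit in spite of its name. Mrps18a had 346, 264 and 377 RPKM in B-KO GC libraries and 324, 370.4 and 250.77 in WT GC libraries, against 162, 157 and 136 in B-KO naive and 159, 142 and 139 in WT naive libraries. Mrps18c had 439, 412 and 492 RPKM in B-KO GC libraries and 388, 466 and 324 in WT GC libraries, against 183, 205 and 231 in B-KO naive and 189.9, 162 and 221 in WT naive libraries. Both genes were above their naive range in every GC library. Mrps18b had 124, 118 and 118 RPKM in B-KO GC libraries and 108, 118 and 96.8 in WT GC libraries, against 90.0, 97.0 and 89.8 in B-KO naive and 100.2, 87.0 and 80.2 in WT naive libraries, and its ranges overlap between WT GC replicate 3 and the naive libraries. The log2 differences were 1.10 ± 0.16 in B-KO (adjusted p = 0.000156) and 1.08 ± 0.16 in WT (adjusted p = 0.000131) for Mrps18a. For Mrps18c they were 1.12 ± 0.15 in B-KO (adjusted p = 0.000105) and 1.03 ± 0.15 in WT (adjusted p = 0.000126). For Mrps18b they were 0.37 ± 0.09 in B-KO (adjusted p = 0.00594) and 0.27 ± 0.09 in WT (adjusted p = 0.0288). Within libraries the log2 ratio of Mrps18a to Mrps18b was 1.17 to 1.68 in B-KO GC and 1.37 to 1.66 in WT GC libraries, against 0.60 to 0.84 in B-KO naive and 0.67 to 0.80 in WT naive libraries. The ratio of Mrps18c to Mrps18b was 1.81 to 2.06 in B-KO GC and 1.75 to 1.99 in WT GC libraries, against 1.02 to 1.36 in B-KO naive and 0.89 to 1.46 in WT naive libraries. Neither ratio overlaps between the cell types. The ratios were picked after the values were seen, so they are a description and no p is given.

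In the stalk, where translation factors dock, 4 of 5 genes rose in each genotype (80%). Over all 77 members 71.4% rose in B-KO and 68.8% in WT mice, and over all genes tested 30.0% and 31.7%. Mrpl12, the L7/L12 protein of the stalk that is also known to bind mitochondrial RNA polymerase, had 447, 416 and 487 RPKM in B-KO GC libraries and 431, 463 and 376 in WT GC libraries, against 274, 236 and 274 in B-KO naive and 257, 220.2 and 255 in WT naive libraries. It rose by 0.78 ± 0.10 in B-KO (adjusted p = 8.70e-05) and 0.79 ± 0.10 in WT (adjusted p = 5.59e-05). Mrpl54 averaged 513 ± 44.0 and 461 ± 55.7 RPKM in B-KO and WT GC libraries, against 259 ± 13.98 and 239 ± 28.6 in B-KO and WT naive libraries (SD, n = 3 each), and its log2 difference was 0.98 in B-KO and 0.95 in WT mice. Mrpl10, which anchors the stalk, rose by 0.46 and 0.29, and Mrpl11, at the stalk base, by 0.33 and 0.47 in B-KO and WT mice. Mrpl53 did not pass, with 193, 196 and 198 RPKM in B-KO GC libraries and 183, 176 and 193 in WT GC libraries, against 167, 184 and 208 in B-KO naive and 188, 170.1 and 224 in WT naive libraries, and the groups overlap.

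Of the 6 genes around the exit tunnel, through which the new chain leaves, 2 rose and 1 fell in each genotype, close to the share of all genes tested (30.0% and 27.5% in B-KO, 31.7% and 30.2% in WT mice). Mrpl45, which ties the ribosome to the inner membrane, had 159.9, 139.7 and 153 RPKM in B-KO GC libraries and 134, 159 and 121 in WT GC libraries, against 103, 90.4 and 80.6 in B-KO naive and 94.3, 82.7 and 83.9 in WT naive libraries and rose by 0.72 ± 0.12 in B-KO (adjusted p = 0.000364) and 0.66 ± 0.12 in WT (adjusted p = 0.000547). Mrpl17 rose by 0.63 in B-KO and 0.59 in WT mice, at a low level (22.2 to 44.9 RPKM over all libraries). Mrpl22 had log2 differences of 0.27 in B-KO and 0.27 in WT mice and just missed the threshold (adjusted p = 0.051 and 0.0501), and it passed in both genotypes where every transcript was fitted (adjusted p = 0.0489 and 0.0480). Mrpl23 and Mrpl47 did not pass in either genotype, with log2 differences for Mrpl47 of 0.28 in B-KO and 0.25 in WT mice. Mrpl24 fell in both. It is the counterpart of bacterial L24, an early assembly protein, and the gene with the highest mean level of all 77 (596 RPKM). It had 517, 514 and 526 RPKM in B-KO GC libraries and 428, 518 and 459 in WT GC libraries, against 706, 669.9 and 732 in B-KO naive and 700.5, 667 and 711 in WT naive libraries, and every GC library was below every naive one. The log2 difference was -0.44 ± 0.07 in B-KO (adjusted p = 0.000383) and -0.57 ± 0.07 in WT (adjusted p = 4.74e-05). The span of the gene shares 833 bases with that of Rrnad1 on the other strand (mean 184 RPKM). Whether exons overlap there was not checked, and counting without strand cannot tell apart reads on shared exons.

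Other large subunit proteins with large rises were Mrpl57, Mrpl51 and Mrpl42, all additions of mitochondria. Mrpl57 had 129, 105 and 114 RPKM in B-KO GC libraries and 113, 115 and 104 in WT GC libraries, against 52.9, 54.2 and 62.6 in B-KO naive and 46.3, 53.9 and 64.8 in WT naive libraries, with no overlap. Its log2 difference was 1.02 in B-KO and 1.004 in WT mice. In B-KO and WT mice, Mrpl51 rose by 0.90 and 0.91, and Mrpl42 by 0.99 and 0.76. Mrpl3, which reaches toward the catalytic center and is mutated in a human cardiomyopathy, averaged 331 ± 30.5 and 325 ± 32.7 RPKM in B-KO and WT GC libraries, against 188 ± 2.96 and 179 ± 3.47 in B-KO and WT naive libraries (SD, n = 3 each) and rose by 0.81 ± 0.08 in B-KO (adjusted p = 2.43e-05) and 0.85 ± 0.08 in WT (adjusted p = 9.60e-06). Mrpl37 changed little but evenly, at 248.87, 230.4 and 229 RPKM in B-KO GC libraries and 224, 227 and 222 in WT GC libraries, against 197, 197 and 197 in B-KO naive and 198, 199 and 192 in WT naive libraries. Its rise of 0.26 and 0.19 passed (adjusted p = 0.00122 and 0.00677 in B-KO and WT mice), and its spread within groups was the smallest of the 77. Mrps30, a large subunit protein in spite of its symbol, rose by 0.50 in B-KO and 0.35 in WT mice. Mrpl44, which has an RNase III fold, had log2 differences in B-KO and WT mice of 0.29 and 0.24 (adjusted p = 0.086 and 0.141), and Mrpl41 of 0.19 and 0.03 (adjusted p = 0.277 and 0.866), so neither passed.

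In the small subunit, Mrps7 averaged 497 ± 14.4 and 449 ± 36.9 RPKM in B-KO and WT GC libraries, against 275 ± 32.1 and 249.97 ± 14.4 in B-KO and WT naive libraries (SD, n = 3 each) and Mrps11 135 ± 10.4 and 132 ± 2.71 RPKM in B-KO and WT GC libraries, against 79.8 ± 3.73 and 78.2 ± 1.94 in B-KO and WT naive libraries. Both are counterparts of bacterial proteins that bind the small subunit RNA. Mrps7 rose by 0.86 and 0.84 and Mrps11 by 0.75 and 0.75 in B-KO and WT mice. Mrps12, which lines the decoding center, had 210.2, 201 and 201 RPKM in B-KO GC libraries and 188, 182 and 177 in WT GC libraries, against 166, 139 and 146.34 in B-KO naive and 129, 120.2 and 149 in WT naive libraries. It rose by 0.44 ± 0.09 in B-KO (adjusted p = 0.00131) and 0.46 ± 0.09 in WT (adjusted p = 0.000859). Mrps22, whose human gene is mutated in a mitochondrial disease, rose by 0.65 in B-KO and 0.59 in WT mice (adjusted p = 0.00931 and 0.0134). Mrps16, another human disease gene, had 447, 422 and 397 RPKM in B-KO GC libraries and 372, 386 and 360.2 in WT GC libraries, against 349, 389.9 and 423 in B-KO naive and 389, 349 and 445 in WT naive libraries, and the GC and naive ranges overlap. Its log2 differences of 0.13 and -0.08 did not pass. Mrps35 fell in WT mice by 0.33 (adjusted p = 0.00658), with 119, 132 and 129.9 RPKM in WT GC and 169, 143 and 168 in WT naive libraries. In B-KO mice its difference was -0.12 (adjusted p = 0.27).

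Most rises were called in both genotypes. These comparisons use separate libraries, and 50 members rose in both, 90.9% of those that rose in B-KO and 94.3% of those that rose in WT mice. The sign was the same for 74 members, and across the 77 genes the differences had a Pearson correlation of 0.94, against 0.93 over all genes tested (a description, since genes of 1 library are not independent). Mrpl36, Mrpl39, Mrps2, Mrps36 and Mrps5 passed in B-KO mice but not in WT mice, and Mrpl32, Mrpl52 and Mrps10 the other way round. The test of the difference between genotypes passed for none of the 77 (smallest unadjusted p = 0.0326, for Mrpl30, with 1 member under 0.05), so none of these 8 is shown to differ between genotypes, and it passed for 0.0219% of all genes. The 16 members that passed in neither genotype are Mrpl22, Mrpl23, Mrpl38, Mrpl41, Mrpl44, Mrpl47, Mrpl48, Mrpl50, Mrpl53, Mrps16, Mrps17, Mrps24, Mrps25, Mrps31, Mrps33 and Mrps6.

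**Figure D3:**
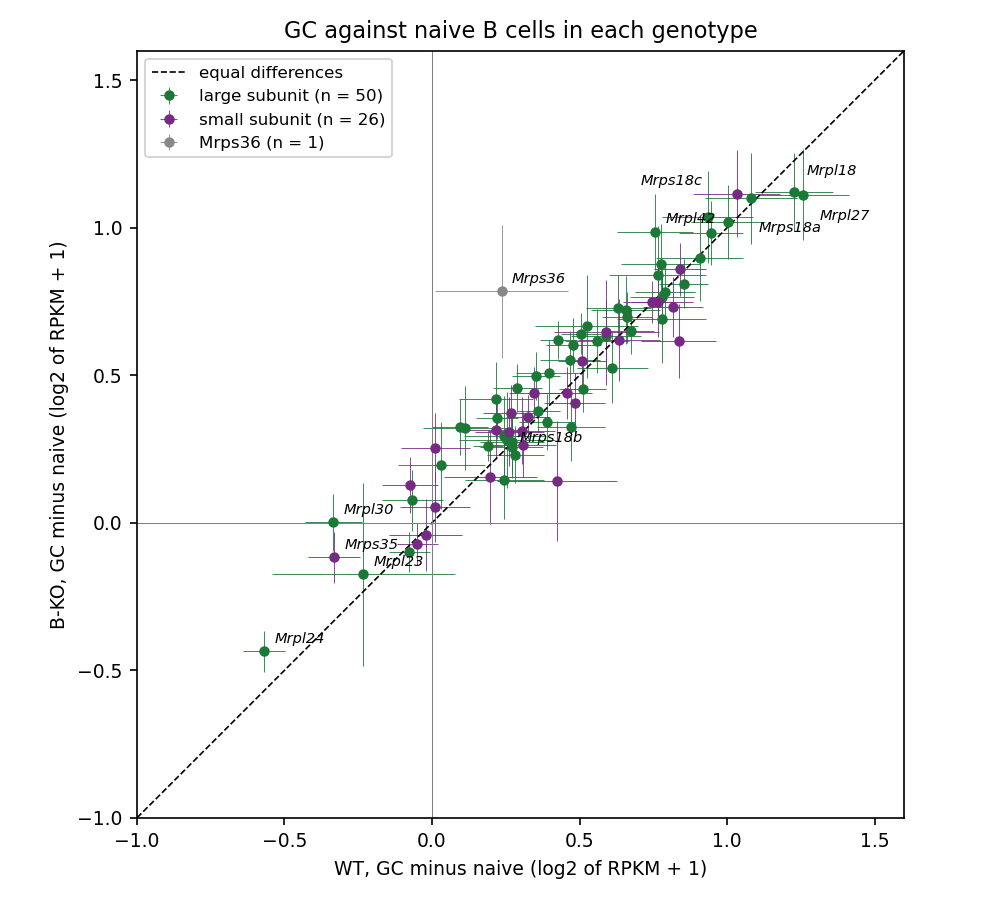
Difference of GC minus naive B cells in log2(RPKM + 1) in B-KO mice (vertical) against WT mice (horizontal) for 77 genes, with standard errors from limma and colours for the subunit. Points lie along the dashed line of equal differences, with Mrpl27, Mrpl18, Mrps18a and Mrps18c at the upper end and Mrpl24 at the lower end, and Mrps36 has the largest gap (0.78 in B-KO, 0.24 in WT) and wide errors.

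Levels per length spanned a wide range within the one particle. Mean RPKM over all libraries had a median of 166 over the 77 genes, against 67.9 over all genes tested, 330.1 for cytosolic ribosomal protein genes and 432 for oxidative phosphorylation subunits. Large subunit genes had a median of 178 RPKM and small subunit genes 145 RPKM. Behind Mrpl24 the highest means were those of Mrpl52 (573 RPKM), Mrpl18 (407) and Mrps16 (394). Mrpl52 had 646, 639 and 677 RPKM in B-KO GC libraries and 604, 585 and 586 in WT GC libraries, against 534, 614 and 528 in B-KO naive and 535, 411 and 522 in WT naive libraries, and B-KO naive replicate 2 lies within the GC range. The lowest were Mrpl23 (4.06 RPKM), Mrps36 (9.37), Mrps33 (30.1) and Mrpl17 (31.5). Mrpl23, of the exit tunnel, had 1.93, 2.67 and 5.78 RPKM in B-KO GC libraries and 4.03, 4.13 and 3.86 in WT GC libraries, against 2.55, 4.31 and 4.55 in B-KO naive and 4.56, 6.50 and 3.89 in WT naive libraries, from 3 to 13 reads a library. The values scatter in 3 groups and lie close together in WT GC libraries, with log2 differences of -0.17 in B-KO and -0.23 in WT mice that did not pass. Mrps36 had 9.45, 8.71 and 12.7 RPKM in B-KO GC libraries and 9.46, 15.6 and 10.5 in WT GC libraries, against 6.26, 6.03 and 4.33 in B-KO naive and 11.2, 8.16 and 9.99 in WT naive libraries, and it was called in B-KO mice alone. Mrpl23, Mrps36 and Mrpl48 have pseudogenes named after them (1, 3 and 1 in GENCODE vM21), and the authors' counting could have split their reads, so their levels are uncertain. Mrpl23, Mrps36 and Mrps33 also had the largest spread within groups, and Mrpl37, Mrpl55 and Mrps11 the smallest. Besides Mrpl24, the spans of Mrpl19 (with Gcfc2), Mrpl21 (Mir6984), Mrpl41 (Dph7), Mrpl48 (Rab6a) and Mrpl49 (Syvn1) overlap another gene. So do those of Mrpl53 (Ccdc142), Mrps25 (Nr2c2), Mrps27 (6430562O15Rik) and Mrps6 (Slc5a3). Whether exons overlap was not checked, and reads on shared exons could not be told apart. Among the 65 members without an overlap or a named pseudogene, 50 rose and 0 fell in B-KO mice (63 differences positive) and 49 rose and 2 fell in WT mice.

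Start regions were compared because the members moved together. RefSeq promoter sequences (GRCm38.p6, 250 bases before to 50 after the start) were found for 68 of the 77 genes. A gene with several starts was counted once, as holding the letters if any of its promoters did. The shares of all promoters count every promoter by itself, so they are not on the same footing as the shares of genes. Letters bound by ETS factors, a family that includes the nuclear respiratory factor GABP (CCGGAAG, both strands), stood in 25 of the 68 (36.8%), against 19.9% of the tested genes with a promoter and 8.86% of all promoters in the table. NRF1, another factor known for genes of mitochondria, binds letters like GCGC, any pair of bases, then GCGC, a pattern that is its own reverse complement, and 14 members held them (20.6%, against 14.6% of tested genes and 6.23% of all promoters). The letters AAGATGGC of YY1 (both strands) were in 12 (17.6%, against 5.21% and 2.75%). At least 1 of these was in 43 members (63.2%, against 34.6% of tested genes). The E-box CACGTG of MYC-type factors was in 5 (7.35%, against 11.6% and 7.15%), the CCAAT letters in 27 (39.7%, against 43.0% and 37.4%) and TATAAA in 5 (7.35%, against 8.76% and 13.6%). Of the 46 matched members that rose in WT GC B cells, 20 (43.5%) held the ETS letters, and of the other 22, 5 (22.7%). The same split was 23.9% and 13.6% for NRF1, 21.7% and 9.09% for YY1 and 8.70% and 4.55% for the E-box. For CCAAT it was 37.0% and 45.5%, and for TATAAA 4.35% and 13.6%. These splits were not tested. The ETS match lay in the last 100 bases before the start in 15 genes. Shown for 4 of the genes with the largest rises are those 100 bases, with the matches to the ETS or NRF1 letters in capitals.
Mrpl27 (chr11:94653691-94653790, plus strand): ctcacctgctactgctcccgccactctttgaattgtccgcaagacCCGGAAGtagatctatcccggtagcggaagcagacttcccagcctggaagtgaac
Mrps18a (chr17:46110904-46111003, plus strand): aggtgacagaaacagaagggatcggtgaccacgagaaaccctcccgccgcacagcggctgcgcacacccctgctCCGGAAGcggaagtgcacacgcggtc
Mrpl51 (chr6:125192100-125192199, plus strand): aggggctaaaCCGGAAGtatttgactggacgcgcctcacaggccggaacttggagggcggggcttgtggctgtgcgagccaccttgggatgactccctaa
Mrpl57 (chr14:57826139-57826238, plus strand): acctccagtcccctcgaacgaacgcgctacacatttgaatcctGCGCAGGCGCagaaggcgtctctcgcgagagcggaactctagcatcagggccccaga
Mrpl27, Mrps18a and Mrpl51 hold the ETS letters and Mrpl57 the NRF1 letters. The windows of Mrpl18, Mrpl40, Mrpl42 and Mrps18c, which also had large rises, hold none of the 3 motifs in these 100 bases. Mrpl18 and Mrps18c hold the ETS letters farther before the start. A match describes letters and not a bound site.

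Positions of the YY1 letters were mostly behind the start. In 8 of the 12 genes they lay behind the start, always on the strand of the gene, with the first letter at base 12 to 37 counted from the start as base 1. Shown for the 4 of these with the largest rises in WT mice are 24 bases around the match, which is in capitals.
Mrps18a (chr17:46111007-46111030, plus strand): tgcgttccAAGATGGCggccctca
Mrps7 (chr11:115604150-115604173, plus strand): cagcggccAAGATGGCtgcccccg
Mrps27 (chr13:99344792-99344815, plus strand): tgcgctccAAGATGGCggctccca
Mrpl42 (chr10:95501907-95501930, minus strand): attgaagcAAGATGGCgagcgcgc
These 4 genes were picked for their rises. On the log2 scale in B-KO and WT mice, Mrps18a rose by 1.10 and 1.08 and Mrps7 by 0.86 and 0.84. Mrps27 rose by 0.73 and 0.82 and Mrpl42 by 0.99 and 0.76. Whether the ATG within these letters is the start codon of the gene was not tested. The letters are shared by members of both subunits. Mrps24, which also has them, had log2 differences of 0.25 and 0.01 and did not pass.

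Many members share a start region with a gene that runs the other way. For 27 of the 77 (35.1%) the start of another gene lay within 1000 bases on the opposite strand, against 14.3% of 13167 tested genes of at least 200 bases. Of 26 such partners tested, 14 rose and 7 fell in WT GC B cells, with a median log2 difference of 0.31, against 31.7% and 30.2% of all genes tested and a median of 0.0054. These 26 include Mrpl46 and Mrps11, which are each other's partner, with starts 42 bases apart, and both rose. Of the 9 members with the largest rises, 6 have a partner, and all 6 partners rose. The partner of Mrpl27 is Eme1, a subunit of a structure-specific DNA endonuclease, at 37 bases, with 126, 91.7 and 154 RPKM in B-KO GC libraries and 159, 149 and 92.3 in WT GC libraries, against 32.5, 31.0 and 19.9 in B-KO naive and 21.0, 20.7 and 18.4 in WT naive libraries. Its log2 difference was 2.12 ± 0.25 in B-KO and 2.64 ± 0.25 in WT mice. Mrpl57 pairs with Ska3, of the spindle and kinetochore complex, at 76 bases, with 124, 87.7 and 150.2 RPKM in B-KO GC libraries and 152, 149.8 and 90.0 in WT GC libraries, against 17.6, 10.2 and 5.81 in B-KO naive and 5.98, 6.52 and 6.39 in WT naive libraries. Mrps18c pairs with the helicase gene Helq (2.33 and 2.86 in B-KO and WT mice), Mrpl51 with Ncapd2 of condensin (2.43 and 2.98), Mrpl40 with the histone chaperone gene Hira (0.95 and 1.09) and Mrpl18 with the chaperonin gene Tcp1 (0.93 and 0.996). The partners of Mrpl27, Mrpl57, Mrps18c and Mrpl51 rose by more than the members did. These members were picked for their rises, and the partners have no test as a group. Of the 20 tested partners of the other members, 8 rose, near the 31.7% of all genes tested. Mrpl14 rose in both genotypes while its partner Tmem63b fell in both. Mitd1 is the partner of Mrpl30, at 142 bases. Its GC minus naive log2 difference was -0.07 in B-KO and -0.35 in WT mice (limma adjusted p = 0.639 and 0.0234).

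Other genes of mitochondrial translation did not all move with the ribosomal proteins. The 6 mitoribosome proteins with other names also rose for the most part, 4 in each genotype, and 0 fell. Among them, Dap3, a small subunit protein first known from cell death, averaged 144 ± 9.71 and 136 ± 4.08 RPKM in B-KO and WT GC libraries, against 99.9 ± 6.25 and 97.6 ± 5.16 in B-KO and WT naive libraries (SD, n = 3 each), and Ict1, a peptidyl-tRNA hydrolase built into the large subunit, rose by 0.67 in B-KO and 0.54 in WT mice. Gadd45gip1 and Chchd1 also rose. Of 15 translation factors, 7 rose and 1 fell in B-KO and 6 rose and 3 fell in WT mice. The WT shares were 40% higher and 20% lower, where all genes tested had 31.7% higher and 30.2% lower. For B-KO mice the list had 46.7% higher and 6.67% lower, beside 30.0% higher and 27.5% lower among all genes tested. In B-KO and WT mice, the elongation factor genes Tsfm (log2 differences of 0.83 and 0.96) and Gfm1 (0.57 and 0.59), C1qbp, a matrix protein that binds RNA (0.81 and 0.89), and the release factor gene Mtrf1 (0.51 and 0.56) all rose.

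Of 22 tested assembly factors 5 rose and 8 fell in each genotype. These were 22.7% and 36.4% of the list. Among all genes tested 30.0% to 31.7% rose and 27.5% to 30.2% fell. Mettl17, an assembly factor of the small subunit, averaged 133 ± 11.9 and 120.5 ± 12.3 RPKM in B-KO and WT GC libraries, against 211 ± 15.9 and 219.5 ± 18.9 in B-KO and WT naive libraries (SD, n = 3 each) and differed by -0.66 ± 0.10 in B-KO (adjusted p = 0.00025) and -0.86 ± 0.10 in WT (adjusted p = 2.96e-05). Rbfa, which binds the maturing small subunit, fell by 0.44 and 0.51, and the methyltransferase gene Mrm1 of the large subunit RNA by 0.67 and 0.69 in B-KO and WT mice. Tfb1m, which methylates the small subunit RNA, rose by 0.52 in B-KO and 0.57 in WT mice. Of 19 genes for tRNA synthetases of mitochondria, 6 rose in each genotype and 5 (B-KO) and 7 (WT) fell, near the share of all genes tested (30.0% and 31.7% higher, 27.5% and 30.2% lower in B-KO and WT mice). Gars, which serves the cytosol as well, had 445 ± 40.9 and 457 ± 48.1 RPKM in B-KO and WT GC libraries, against 219 ± 26.6 and 200.3 ± 5.17 in B-KO and WT naive libraries (SD, n = 3 each). Mars2, for methionine, averaged 52.8 ± 3.59 and 50.2 ± 5.58 RPKM in B-KO and WT GC libraries, against 109 ± 7.16 and 113 ± 6.85 in B-KO and WT naive libraries, and fell in both genotypes. Fars2 rose by 0.91 and Sars2 by 0.72 in B-KO mice, and by 0.89 and 0.75 in WT mice.

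Of 10 tested genes that copy and transcribe mitochondrial DNA, 2 rose (Polg, the DNA polymerase, and Mgme1, an exonuclease) and 2 fell (Top1mt, a topoisomerase, and Polrmt, the RNA polymerase) in each genotype, a smaller share each way than over all genes tested (27.5% to 31.7%). Of 17 import genes, 13 rose in B-KO and 12 in WT mice and 0 fell, among them Tomm40, the channel of the outer membrane (log2 differences in B-KO and WT mice of 0.82 and 0.94), its receptor Tomm20 (0.88 and 0.83), and Timm13 and Timm50 of the inner membrane pathways. Of 78 tested genes for oxidative phosphorylation subunits, 62 rose and 1 fell in B-KO and 61 rose and 2 fell in WT mice. Of 82 cytosolic ribosomal protein genes tested, 8 rose and 19 fell in B-KO and 10 rose and 26 fell in WT mice, with medians of -0.12 and -0.17. The difference between these lists was not tested.

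**Figure D4:**
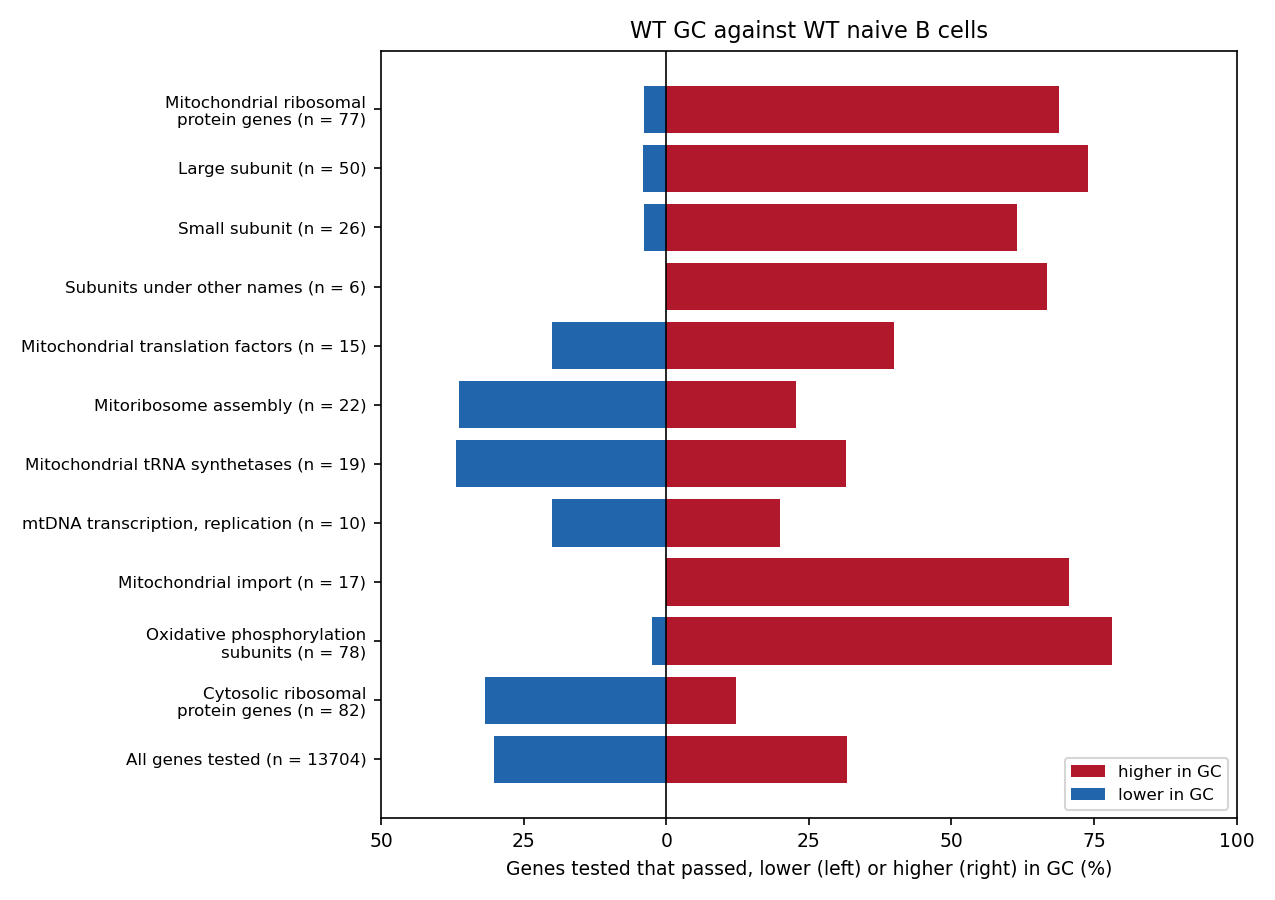
Share of tested genes of each list that passed as lower (blue, to the left) or higher (red, to the right) in WT GC than in WT naive B cells, with the number tested in each label. The mitochondrial ribosomal protein genes (68.8% higher, 3.90% lower), import genes and oxidative phosphorylation subunits are mostly red, cytosolic ribosomal protein genes and assembly genes hold more blue than red, and all genes tested are near even.

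Loss of miR-146a in B cells gave no called difference in any of the 77 genes, in GC or in naive B cells. By limma, 0 members passed in GC B cells, where 5 had an unadjusted p under 0.05 and 0.00730% of all genes passed, and 0 passed in naive B cells, where 6 had an unadjusted p under 0.05 and 0.0146% of all genes passed. limma voom on reads also called 0 in each. In GC B cells 68 members (88.3%) were higher in B-KO, with a median log2 difference of 0.10, while 58.5% of all genes tested were higher, with a median of 0.031. Among cytosolic ribosomal protein genes 92.7% were higher (median 0.11), and among oxidative phosphorylation subunits 88.5% (median 0.10), so the members do not stand apart from these families. In naive B cells 53 members (68.8%) were higher in B-KO, with a median of 0.05, against 56.6% and a median of 0.019 over all genes. There 84.1% of the cytosolic ribosomal protein genes and 89.7% of the oxidative phosphorylation subunits were higher (medians of 0.088 and 0.086). All 3 B-KO GC libraries were above all 3 WT GC libraries for 13 members (6.08% of all genes) and below for 0 (3.21%). They were above for 19 of 82 cytosolic ribosomal protein genes and 11 of 78 oxidative phosphorylation subunits, and below for 0 of either. In naive B cells this was so for 6 members above (6.30%) and 2 below (3.08%). The GC median depends on single libraries: it was 0.03 with 46 members higher without WT GC replicate 3, and 0.16 without B-KO GC replicate 2 or without WT GC replicate 2. It was 0.18 between the GC libraries with Y-linked expression (2 B-KO, 1 WT) and 0.12 between those without (1 and 2). Without WT naive replicate 2, the naive median was -0.0057, with 37 members higher.

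**Figure D5:**
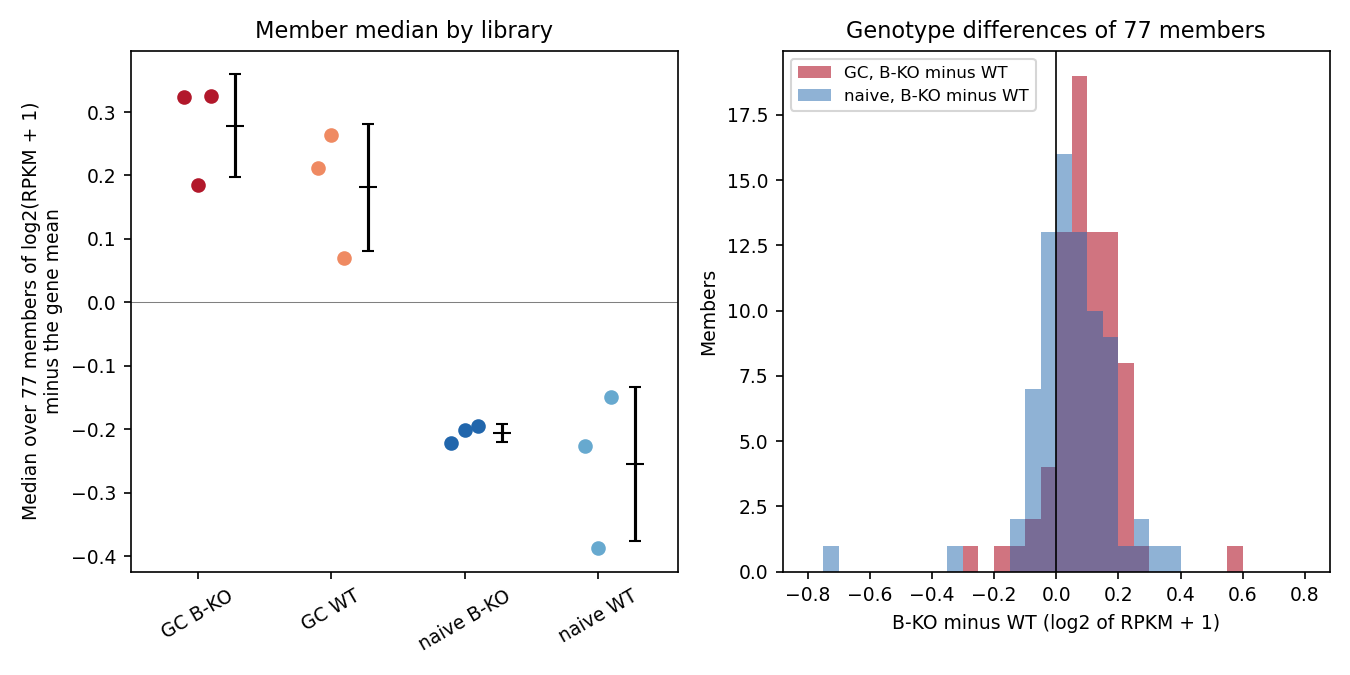
Left, the median over 77 genes of log2(RPKM + 1) minus the gene mean in each library, with the mean and SD of each group (n = 3), and right, a histogram of the B-KO minus WT differences of the 77 genes in GC (red) and naive (blue) B cells. GC libraries lie at 0.07 to 0.33 and naive libraries at -0.39 to -0.15, the genotypes overlap within each cell type, and the histograms sit slightly right of 0, with Mrpl30 alone near 0.58 in GC B cells.

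Mrpl30 had the smallest p of the members between genotypes in GC B cells. This counterpart of bacterial L30 (chr1:37890553-37898333, plus strand) had 461, 442 and 424 RPKM in B-KO GC and 302, 291 and 291 in WT GC libraries, with no overlap. The log2 difference was 0.58 ± 0.10 (unadjusted p = 9.07e-05, adjusted p = 0.163 over all genes), so it did not pass. It was 0.63 between the libraries with Y-linked expression and 0.51 between those without. In naive B cells it had 448, 421 and 456 RPKM in B-KO and 343, 334 and 447 in WT libraries, where WT replicate 3 stands with the B-KO libraries, and the difference was 0.25 ± 0.10 and did not pass. Without WT naive replicate 3 the GC difference passed (adjusted p = 0.00408), with the same log2 difference. Between GC and naive B cells Mrpl30 differed by 0.00196 in B-KO mice and fell by 0.33 in WT mice (adjusted p = 0.0112). In WT mice the adjusted p was 0.0554 without the 4 libraries that stand closest to the other cell type.

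Mature miR-146a-5p (RefSeq, GRCm38.p6, chr11:43374435-43374456, minus strand) is given here with its seed, bases 2 to 8, in capitals, followed by the stretch of the annotated Mrpl30 3′ UTR (GENCODE vM21) around the match to that seed, also in capitals.
mmu-miR-146a-5p: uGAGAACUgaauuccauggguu
Mrpl30 3′ UTR site: ctatcacttcgttcAGTTCTCtcc
The seed match AGTTCTC was searched on the gene's strand in the longest annotated 3′ UTR. It was in 8 of the 77 members (10.4%), against 12.1% of 11802 tested genes with a 3′ UTR, whose median length was 1094 bases against 387 bases for the members. The 8 are Mrpl10, Mrpl17, Mrpl30, Mrpl48, Mrps17, Mrps30, Mrps35 and Mrps5. Their median difference between B-KO and WT was 0.12 in GC and -0.02 in naive B cells, against 0.09 and 0.05 in members without a match. Over all tested genes with a 3′ UTR, those with a match had medians of 0.014 in GC and 0.0083 in naive B cells. Those without a match had 0.034 and 0.022. These differences were not tested. Among the 8 members, only in Mrps17 is the match followed by an A. A match of these letters shows no binding.

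Of the other members with the smallest p, Mrps34 had 248, 238 and 231 RPKM in B-KO GC and 196, 217 and 198 in WT GC libraries, with no overlap and a log2 difference of 0.23 ± 0.07 (adjusted p = 0.692). Its naive values were 203, 173 and 184 RPKM in B-KO and 173, 159 and 155 in WT libraries. Mrps15 and Mrpl43 had differences of 0.22 and 0.18 in GC B cells (adjusted p = 0.789 and 0.815). In naive B cells Mrps36 had the smallest p, with 6.26, 6.03 and 4.33 RPKM in B-KO and 11.2, 8.16 and 9.99 in WT libraries and a difference of -0.72 ± 0.23 (adjusted p = 0.886). These values rest on 7 to 37 reads a library over the 12 libraries. Mrps28 differed by 0.32 and did not pass.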

How the data were processed

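Spleen B cells were sorted and RNA was sequenced in 12 libraries. The methods describe poly-A RNA, while the labels name total RNA. The authors aligned reads with STAR (2.2.0c in the processing notes, which name mm9 and mm10; the file header and the methods name mm10) and computed the deposited RPKM per RefSeq transcript with HOMER (version not given in the sources used here), from exon reads of either strand, scaled to 10000000 per library. The table holds 33072 transcripts.

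Per symbol the transcript with the highest mean was kept (8 members have several), and the 13704 genes that reached an RPKM of 1 in 3 or more libraries entered the fit. log2(RPKM + 1) was fitted in R 4.3.3 with limma 3.58.1, 4 group means and eBayes with a trend. Fold changes on this scale understate changes of low genes. p values were adjusted by Benjamini-Hochberg over all genes, at a threshold of 0.05. Dividing each value by that of 1 read gave whole reads (within 0.1) for 100% of the values that were precise enough, 22945634 to 39118224 per library, which bound counting error only. limma voom on these reads was an alternative, with other pseudocounts, filters, rescalings, weights, a replicate block and each library left out. Chosen after seeing the data were leaving out libraries near the other cell type, Y-linked expression as a covariate or a filter, and every transcript.

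The members, lists and roles were chosen with earlier results of these data known. Named are the largest rises and falls, the smallest p between genotypes, the highest and lowest levels and spreads, members of known role or with overlapping genes, and up to 4 genes of each list with the smallest p in WT mice. The choice of Mrps7, Mrps27, Mrps24, Mrpl14 and the partner genes came later, with the values known. The fit was tested on simulated reads where few genes changed, in WT GC libraries alone, with the same spread setting for every gene. Many genes differ between the real GC and naive B cells, so this run cannot check the counts of rises and falls. Promoters, miRNA and 3′ UTR letters came from RefSeq (GRCm38.p6) and GENCODE vM21.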

Additional observations from a re-analysis of the deposited data

How the results depend on the processing

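The results kept their direction under the alternatives, with few exceptions. Members that rose numbered 50 to 59 in B-KO and 46 to 55 in WT mice with each library left out in turn, and 1 fell in B-KO and 3 in WT mice in every such run. Under quantile normalization, which moved the median of all genes to -0.04 and -0.06, 51 members rose and 3 fell in B-KO and 45 rose and 3 fell in WT mice, the only setting that moved the count of falls in B-KO mice above 1. The labels do not say that replicate numbers pair the libraries. Correlations of deviations from group means were -0.57 to 0.15 between same-numbered and -0.39 to 0.53 between differently numbered libraries. With 3 libraries a group they cannot settle whether libraries are paired. With the replicate number as a block, 53 rose and 1 fell in B-KO and 52 rose and 3 fell in WT mice. limma voom on reads gave 53 and 1, and 50 and 3. Between genotypes 0 members passed under all settings but the fit without WT naive replicate 3, where 1 (Mrpl30) was higher in B-KO GC B cells. With each library left out the median of the members between genotypes was 0.03 to 0.16 in GC and -0.0057 to 0.09 in naive B cells. After median-of-ratios rescaling it was 0.07 and 0.03, with 59 and 47 members higher. With every one of 91 member transcripts kept, 66 rose and 1 fell in B-KO and 65 rose and 3 fell in WT mice. Depth limits the lowest members: Mrpl23 had 3 to 13 and Mrps36 7 to 37 reads a library.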
